A study of Mus musculus with 6 samples.

Results

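The enzymes described here build, recycle and phosphorylate the purine and pyrimidine nucleotides of the cell. They are 38 genes chosen by name, of the 22183 genes in the deposited count table, and each symbol had a single row. De novo purine synthesis has 13 of these genes, purine salvage 5, de novo pyrimidine synthesis 5, pyrimidine and deoxynucleoside salvage 6, ribonucleotide reduction with dTMP synthesis 5, and the nucleotide kinases 4. Transcripts were measured by RNA sequencing of cells sorted as peritoneal endothelial cells (ECs). The cells came from 3 mice injected with peritoneal dialysis (PD) fluid and 3 injected with saline, each by the intraperitoneal route daily for 6 weeks. All 6 were wild-type (WT) mice, and the methods give male C57BL/6J animals of 8 to 10 weeks. The PD fluid was a glucose-based dialysis solution, and each of the 3 libraries of a group is taken as 1 of its 3 mice. The values are read counts, which are given here as CPM, the count relative to the library size after TMM scaling. Changes are those of PD mice relative to saline mice on the log2 scale, with their standard error (SE).

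De novo purine synthesis assembles the purine ring on phosphoribosyl pyrophosphate (PRPP), an activated ribose phosphate that is made from a product of the pentose phosphate pathway. De novo pyrimidine synthesis first closes the ring, with 1 step in the mitochondrion, and then joins it to PRPP. Salvage enzymes return free bases and nucleosides to the pools at a lower energy cost, and ribonucleotide reductase turns ribonucleotides into the deoxyribonucleotides that dividing cells and mitochondria use for DNA. Several steps are carried by a pair of isozymes encoded by separate genes, and 8 such pairs are among the members.

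The cells were labelled as endothelial. The labels describe magnetic sorting for CD31, whereas the supplementary methods describe sorting of CD31+ CD45- cells by flow cytometry. On the authors' FPKM scale, which corrects for gene length, the CD31 transcript (Pecam1) was at 145 ± 4.44 FPKM (SD, n = 3) in saline mice and 158 ± 5.11 FPKM (SD, n = 3) in PD mice. The CD45 transcript (Ptprc), which marks leukocytes, was at 624 ± 30.2 FPKM (SD, n = 3) and 392 ± 7.73 FPKM (SD, n = 3), and the transcript of VE-cadherin (Cdh5), an endothelial marker, at 4.72 ± 0.715 FPKM (SD, n = 3) and 8.37 ± 0.365 FPKM (SD, n = 3). Ptprc was the most abundant of these in both groups, although a CD45- gate is described. Marker levels also differed between the groups. Of the lists of markers, 11 of 12 endothelial, 8 of 8 macrophage, 7 of 7 mesothelial, 7 of 7 fibroblast, 6 of 6 pericyte and smooth muscle and 10 of 10 pancreatic acinar genes were higher in PD mice, while 8 of 8 B cell genes and 5 of 6 leukocyte genes were lower. The summed CPM of the B cell list ran from 6511 to 6788 in saline mice and from 3078 to 3136 in PD mice, and that of the macrophage list from 1041 to 1065 and from 4232 to 4408. The acinar list had a sum of 2.23 to 5.49 CPM in saline mice and of 9290 to 10170 CPM in PD mice. Of the other lists, 4 of 5 tested neutrophil genes were higher, and 2 of 8 T and NK cell genes were higher and 3 lower. In bulk RNA of this kind, fewer cells of a type and less RNA per cell cannot be told apart, and the part of these cell types in the results below was not tested.

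All 38 genes passed the filter on low counts. Of these, 5 were higher in PD mice, 20 were lower and 13 did not pass an adjusted p of 0.05 in edgeR's quasi-likelihood test, adjusted over the 14005 genes tested. Among all genes tested, 31.1% were higher and 27.8% lower. The median log2 fold change was -0.21 over the members and 0.017 over all genes tested. The groups did not overlap, with every PD mouse below every saline mouse, in 24 members, and with every PD mouse above in 5. For all genes these shares were 31.6% and 34.0%. The summed CPM of the 38 genes ran from 2924 to 3077 in the saline mice and from 2411 to 2609 in the PD mice. Most changes were small. Of the 25 members past the threshold, 24 changed by less than 2-fold, and the exception was Pfas.

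**Figure D1:**
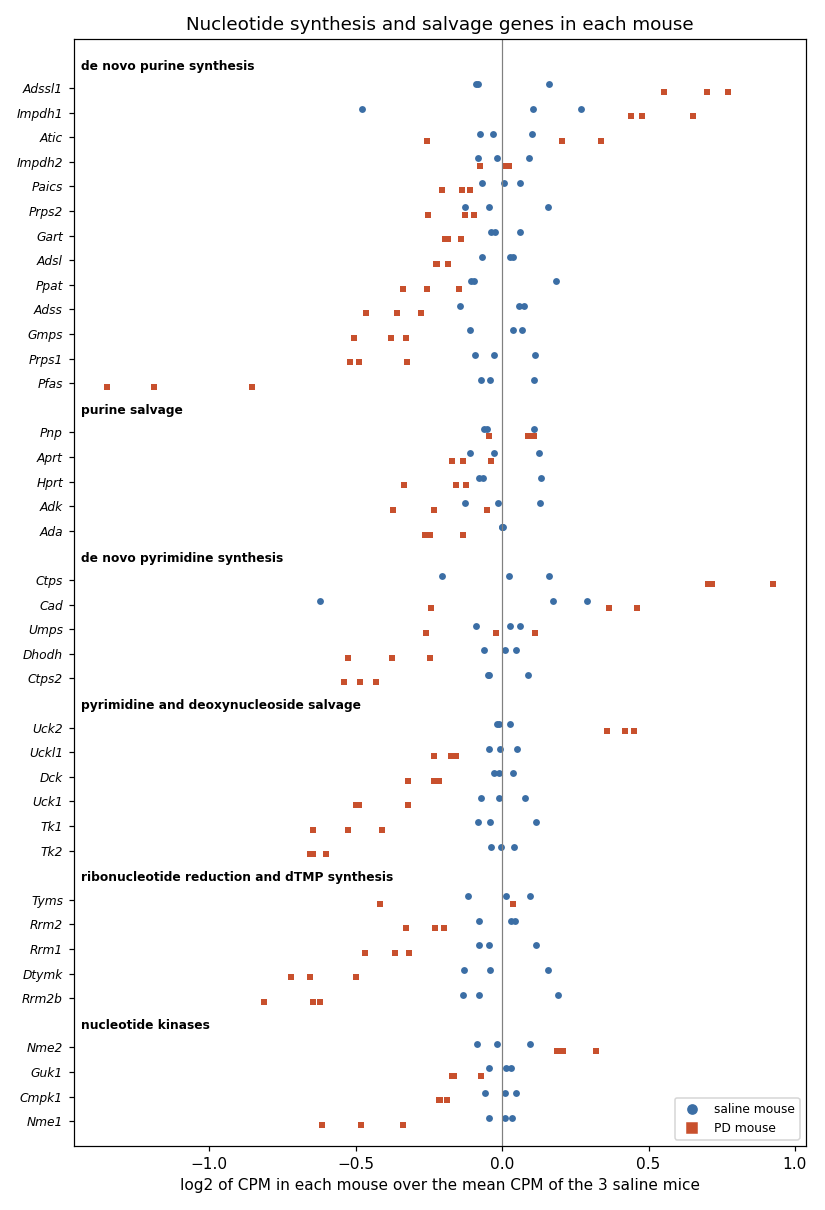
The plot shows, for each of the 38 genes, the log2 of the CPM in each mouse over the mean of the 3 saline mice, with saline mice as circles and PD mice as squares. Genes are grouped by step and ordered by fold change within a step, and the PD mice lie to the left of the saline mice in 24 genes and to the right in 5.

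The calls depended on how the libraries were scaled. With the libraries scaled to the 12 endothelial markers, the median over all genes tested moved to -0.69, and 34 members were lower and 0 higher (64.2% and 11.9% of all genes tested). At an unadjusted p of 0.05, 0 members were higher in that edgeR fit. With scaling to the 6 leukocyte markers, chosen after seeing the data, the median over all genes moved to 0.36, and 13 members were higher and 4 lower (53.0% and 6.79%). The member median was -0.92 under the first and 0.14 under the second. A change of scaling moves all genes by nearly the same amount. The member median relative to that of all genes was thus bound to stay, at -0.23 under TMM, endothelial and leukocyte scaling. Fold changes below are therefore relative to the bulk of the transcripts in each library. The 4 genes that were lower under all of these scalings were Pfas, Tk2, Rrm2b and Dtymk, and no member was higher under all of them.

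**Figure D2:**
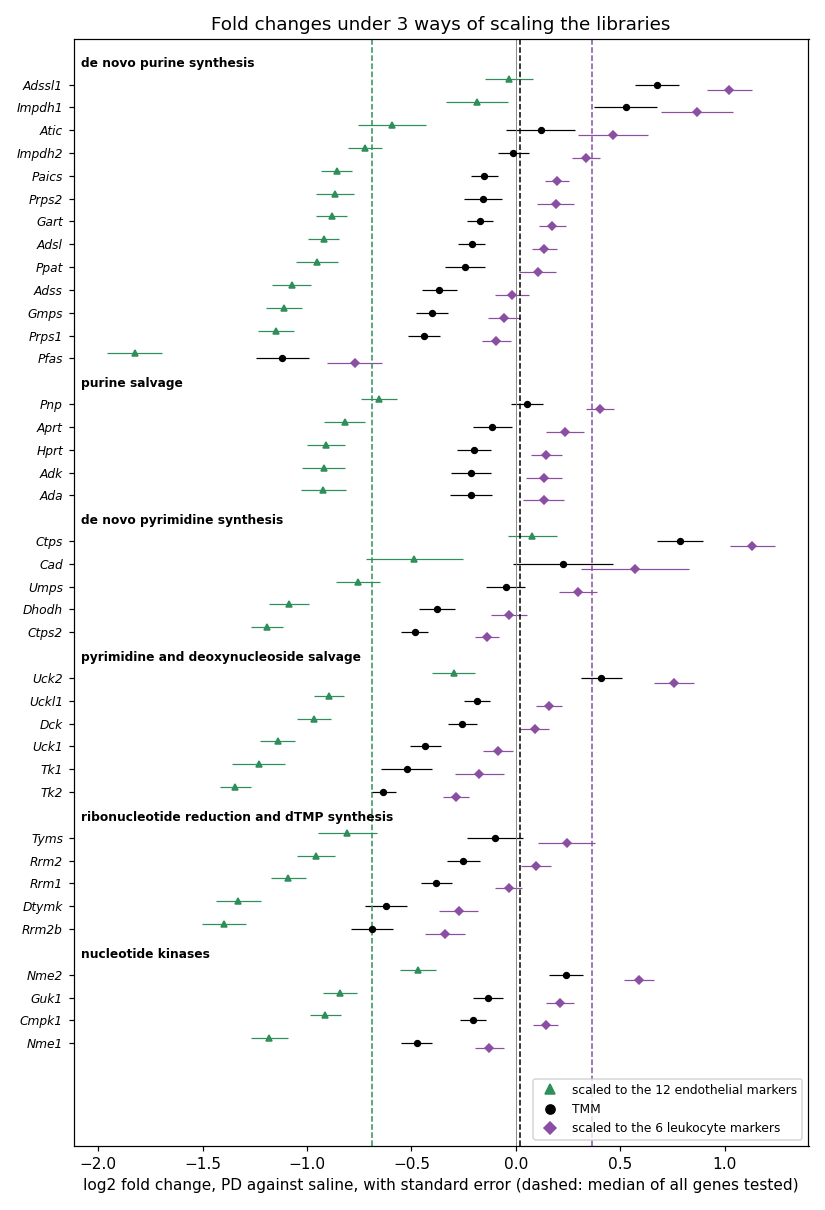
The plot gives the log2 fold change of each gene with its standard error under TMM (circles), scaling to 12 endothelial markers (triangles) and scaling to 6 leukocyte markers (diamonds), and dashed lines mark the median of all genes tested under each. The whole set shifts with the median of all genes, from -0.69 with endothelial markers to 0.36 with leukocyte markers.

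De novo purine synthesis had 7 lower and 2 higher genes of 13 (27.8% and 31.1% of all genes tested), with a median log2 fold change of -0.17. The lower genes were spread along the pathway, from PRPP formation to the last steps of AMP and GMP formation. Prps1, one of the enzymes that make PRPP, was at 186, 205 and 177 CPM in the 3 saline mice and 132, 135 and 151 CPM in the 3 PD mice. All PD mice were below all saline mice, and the log2 change was -0.44 (SE 0.077, edgeR adjusted p = 0.000585). Its isozyme Prps2 was at 62.5, 54.4 and 51.3 CPM in saline mice and 52.5, 51.4 and 47.0 CPM in PD mice. These groups overlapped, and the log2 change was -0.16 (SE 0.090, edgeR adjusted p = 0.155). Ppat, which commits PRPP to purine synthesis, was at 49.8, 60.4 and 49.4 CPM in saline mice and 44.5, 48.0 and 42.1 CPM in PD mice. The groups were close to each other, with a log2 change of -0.24 (SE 0.097, edgeR adjusted p = 0.0480). This call did not hold without saline replicate 1 or 2 or without any 1 of the 3 PD mice, when the edgeR adjusted p was between 0.0567 and 0.178, nor with library totals alone (0.0595), without the filter on low counts (0.0548) or with limma-voom (0.0508).

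Pfas, which turns FGAR into FGAM by the addition of an amide nitrogen, had the largest fold change of the 38 (ENSMUSG00000020899, chromosome 11 of GRCm38, 68985697 to 69008460, minus strand). It was at 37.0, 32.6 and 33.3 CPM in saline mice and 15.05, 13.5 and 19.0 CPM in PD mice. The highest PD mouse was well under the lowest saline mouse. The log2 change was -1.12 (SE 0.13, edgeR adjusted p = 3.03e-05), and leaving out single mice gave log2 changes from -1.26 to -1.01. Gart, which carries 3 activities of the same stretch of the pathway, was at 121, 122 and 130 CPM in saline mice and 110, 109 and 113 CPM in PD mice. Here the log2 change was -0.17 (SE 0.062, edgeR adjusted p = 0.0335), and Gart did not pass without saline replicate 1 or 3 or PD replicate 1 or 2 (edgeR adjusted p of 0.0652 to 0.136), nor without the filter on low counts. With leukocyte marker scaling Gart was higher in PD mice (log2 change 0.17, edgeR adjusted p = 0.0393). Adsl, which releases fumarate in purine ring synthesis and again in AMP formation, was at 100, 99.7 and 93.3 CPM in saline mice and 83.6, 83.8 and 86.0 CPM in PD mice. The groups stood apart by a narrow gap, and the log2 change was -0.21 (SE 0.065, edgeR adjusted p = 0.0158). Without saline replicate 1 or PD replicate 2 the edgeR adjusted p of Adsl was 0.0760 and 0.0722. Paics, which lies between Gart and Adsl in the pathway, was at 126, 131 and 120 CPM in saline mice and 109, 117 and 114 CPM in PD mice. It did not pass (edgeR adjusted p = 0.0650), except without saline replicate 3 (0.0444) or with marker scaling. With endothelial markers Paics was lower (log2 change -0.86, edgeR adjusted p = 3.70e-07), and with leukocyte markers higher (0.20, edgeR adjusted p = 0.0131). Atic, the enzyme of the last steps to IMP, was at 8.63, 8.90 and 9.77 CPM and 10.5, 11.5 and 7.61 CPM, with a fold change within its error (log2 change 0.12, SE 0.16, edgeR adjusted p = 0.557).

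Paics and Ppat are divergent neighbours. Their annotated starts on chromosome 5 lie 271 bp apart and 272 exonic bases are shared on opposite strands, so that reads in this stretch could be assigned to either gene if strand was not used in counting. The study's counting setting for strand is not given in the sources used here.

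At the branch from IMP to GMP, the members moved in different directions under TMM scaling. With endothelial marker scaling Impdh1 had a log2 fold change of -0.19 that did not pass (edgeR adjusted p = 0.270), and Impdh2 and Gmps were lower. Impdh1, an isozyme of the rate-limiting step to GMP, was at 55.8, 37.2 and 62.5 CPM in saline mice and 81.3, 70.3 and 72.2 CPM in PD mice (ENSMUSG00000003500, chromosome 6, 29200434 to 29216364, minus strand). Saline replicate 2 was far below the other 2 saline mice, and all PD mice were above all saline mice. The log2 change was 0.52 (SE 0.15, edgeR adjusted p = 0.0124), and leaving out single mice gave 0.34 to 0.68. Its isozyme Impdh2, usually the form that follows proliferation, was at 62.4, 67.3 and 59.7 CPM in saline mice and 64.2, 63.6 and 59.9 CPM in PD mice. The groups overlapped and the log2 change was -0.012 (SE 0.075, edgeR adjusted p = 0.899). Gmps, which completes GMP, was at 81.6, 92.1 and 90.2 CPM in saline mice and 67.5, 61.9 and 70.1 CPM in PD mice. Every PD mouse was below every saline mouse, with a log2 change of -0.40 (SE 0.078, edgeR adjusted p = 0.00117).

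At the branch to AMP, both adenylosuccinate synthetases passed the threshold under TMM scaling, in opposite directions, whereas with endothelial marker scaling Adssl1 had a log2 fold change of -0.031. Adss, the widely expressed form, was at 85.2, 98.0 and 99.1 CPM in saline mice and 68.1, 73.4 and 77.6 CPM in PD mice. Each PD mouse was lower, and the log2 change was -0.37 (SE 0.082, edgeR adjusted p = 0.00290). Adssl1, the form best known from muscle, was at 20.6, 17.3 and 17.4 CPM in saline mice and 27.1, 29.98 and 31.5 CPM in PD mice (ENSMUSG00000011148, chromosome 12, 112620045 to 112641360, plus strand). The PD mice were all above the saline mice, and the log2 change was 0.68 (SE 0.11, edgeR adjusted p = 0.000323).

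None of the 5 purine salvage genes passed the threshold. In 2 of the 5 every PD mouse was below every saline mouse, as in 31.6% of all genes tested. At an unadjusted p under 0.05 in edgeR, 2 of the 5 passed, and none passed with limma-voom. Hprt passed with DESeq2 (adjusted p = 0.0442) and in edgeR with RLE scaling (adjusted p = 0.0485), with library totals alone (0.0396) and without saline replicate 3 (0.0444) or PD replicate 3 (0.0459). Adk passed in edgeR without saline replicate 3 (adjusted p = 0.0406) or PD replicate 3 (0.0220). With endothelial marker scaling all 5 were lower (64.2% of all genes tested), and with leukocyte marker scaling Aprt and Pnp were higher (53.0%). Hprt, which salvages hypoxanthine and guanine, was at 122, 140 and 121 CPM in saline mice and 101, 114 and 117 CPM in PD mice. It lay near the threshold, with a log2 change of -0.20 (SE 0.082, edgeR adjusted p = 0.0532). Aprt, which salvages adenine, was at 36.8, 33.1 and 31.3 CPM in saline and 30.8, 32.8 and 29.9 CPM in PD mice (log2 change -0.11, SE 0.092, edgeR adjusted p = 0.312). Pnp, which releases the base from inosine and guanosine, was at 87.8, 98.9 and 88.5 CPM and 89.0, 97.4 and 99.0 CPM (log2 change 0.053, SE 0.075, edgeR adjusted p = 0.568). Both overlapped between the groups. Ada, which deaminates adenosine, was at 18.6, 18.6 and 18.6 CPM and 15.5, 16.9 and 15.7 CPM (log2 change -0.21, SE 0.10, edgeR adjusted p = 0.0864), and Adk, which phosphorylates adenosine, at 88.3, 97.6 and 81.7 CPM and 68.8, 75.9 and 86.0 CPM (log2 change -0.21, SE 0.095, edgeR adjusted p = 0.0731). Ada varied least of all members among saline mice, with a coefficient of variation of 0.144%.

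De novo pyrimidine synthesis had 1 higher and 2 lower genes of 5 (31.1% and 27.8% of all genes tested). Cad, the enzyme of the first 3 steps, was at 10.4, 5.53 and 9.61 CPM in saline and 11.7, 10.99 and 7.20 CPM in PD mice. It had the widest spread of the 38 genes, with a coefficient of variation of 30.7% in saline and 24.4% in PD mice, and saline replicate 2 and PD replicate 3 were the lowest in their groups (log2 change 0.23, SE 0.24, edgeR adjusted p = 0.441). Dhodh, the mitochondrial step, was at 65.5, 60.7 and 63.8 CPM in saline mice and 44.0, 48.8 and 53.4 CPM in PD mice. The groups did not overlap, and the log2 change was -0.38 (SE 0.085, edgeR adjusted p = 0.00301). Umps, which forms UMP, was at 89.9, 99.9 and 97.5 CPM and 79.9, 94.4 and 103 CPM, with overlapping groups (log2 change -0.049, SE 0.093, edgeR adjusted p = 0.670).

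The last step, the amination of UTP to CTP, showed opposite changes in its isozymes under TMM scaling, whereas with endothelial marker scaling Ctps had a log2 fold change of 0.077 that did not pass (edgeR adjusted p = 0.562). Ctps (ENSMUSG00000028633, chromosome 4, 120539868 to 120570276, minus strand) was at 20.7, 26.7 and 24.3 CPM in saline mice and 39.3, 38.9 and 45.4 CPM in PD mice. All PD mice were above all saline mice. The log2 change of 0.78 (SE 0.11, edgeR adjusted p = 0.000142) was the highest of the members, and leaving out single mice gave 0.70 to 0.87. Ctps2 (ENSMUSG00000031360, chromosome X, 162901238 to 163032508, plus strand) was at 172, 188 and 171 CPM in saline mice and 122, 126 and 131 CPM in PD mice. It was lower in each PD mouse than in any saline mouse, with a log2 change of -0.49 (SE 0.066, edgeR adjusted p = 0.000104). Per length, Ctps2 remained the more abundant of the pair. The FPKM of Ctps was 8.81 ± 1.07 FPKM (SD, n = 3) in saline and 15.3 ± 1.02 FPKM (SD, n = 3) in PD mice, and that of Ctps2 was 122 ± 6.42 FPKM (SD, n = 3) and 86.7 ± 1.66 FPKM (SD, n = 3).

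All 6 pyrimidine and deoxynucleoside salvage genes passed the threshold, 5 lower and 1 higher (27.8% and 31.1% of all genes tested). With endothelial marker scaling all 6 were lower, as were 64.2% of all genes tested. Uck2, a uridine and cytidine kinase, was at 16.1, 16.003 and 16.5 CPM in saline mice and 21.7, 20.8 and 22.2 CPM in PD mice (ENSMUSG00000026558, chromosome 1, 167222883 to 167285320, minus strand). The PD mice were above the saline mice, with a log2 change of 0.41 (SE 0.096, edgeR adjusted p = 0.00383). On the FPKM scale the difference was smaller, from 12.6 ± 0.376 FPKM (SD, n = 3) to 13.8 ± 0.615 FPKM (SD, n = 3). Uck1, its more abundant isozyme per length, was at 98.7, 109 and 103 CPM in saline mice and 73.4, 73.9 and 83.0 CPM in PD mice. Every PD mouse was lower, and the log2 change was -0.43 (SE 0.075, edgeR adjusted p = 0.000581). Uckl1, a related protein, was at 124, 117 and 119 CPM in saline mice and 106, 102 and 108 CPM in PD mice. Each PD mouse was lower and the log2 change was -0.19 (SE 0.063, edgeR adjusted p = 0.0237), but Uckl1 did not pass without saline replicate 1 or PD replicate 2 (edgeR adjusted p = 0.117 and 0.124).

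Both thymidine kinases were lower. Tk1, the cytosolic form of S phase, was at 14.2, 16.3 and 14.6 CPM in saline mice and 10.4, 9.60 and 11.3 CPM in PD mice. The groups stood apart, with a log2 change of -0.52 (SE 0.12, edgeR adjusted p = 0.00373). Tk2, the mitochondrial form, was at 149, 145 and 153 CPM in saline mice and 94.4, 95.0 and 98.1 CPM in PD mice (ENSMUSG00000035824, chromosome 8, 104226685 to 104248558, minus strand). Its replicates were tight in both groups. The log2 change of -0.63 (SE 0.061, edgeR adjusted p = 7.93e-06) had the lowest adjusted p of the members. Dck, which phosphorylates deoxycytidine, was at 69.4, 70.1 and 72.6 CPM in saline mice and 56.5, 60.9 and 60.1 CPM in PD mice. It was lower in every PD mouse, with a log2 change of -0.26 (SE 0.069, edgeR adjusted p = 0.00839).

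In ribonucleotide reduction and dTMP synthesis, 4 of 5 genes were lower and none higher (27.8% and 31.1% of all genes tested). Rrm1, the large subunit of ribonucleotide reductase, was at 129, 144 and 126 CPM in saline mice and 96.1, 103 and 107 CPM in PD mice. The groups did not overlap, and the log2 change was -0.38 (SE 0.074, edgeR adjusted p = 0.00117). Rrm2, the small subunit of S phase, was at 45.1, 45.6 and 41.8 CPM in saline mice and 35.1, 37.7 and 38.5 CPM in PD mice. The log2 change was -0.25 (SE 0.081, edgeR adjusted p = 0.0200), but Rrm2 did not pass without saline replicate 1 or PD replicate 1 or 2 (edgeR adjusted p of 0.0600 to 0.0767). Rrm2b, the p53-inducible small subunit that also serves cells outside S phase, was at 49.1, 61.4 and 51.0 CPM in saline mice and 34.4, 30.7 and 35.0 CPM in PD mice (ENSMUSG00000022292, chromosome 15, 37923952 to 37961318, minus strand). It had the larger fold change of the small subunits, with a log2 change of -0.69 (SE 0.10, edgeR adjusted p = 0.000188). Tyms, which makes dTMP from dUMP, was at 22.02, 19.0 and 20.8 CPM and 15.4, 21.1 and 21.2 CPM, with PD replicate 1 below the other 2 PD mice (log2 change -0.10, SE 0.13, edgeR adjusted p = 0.533). Dtymk, which phosphorylates dTMP, was at 41.3, 47.4 and 38.8 CPM in saline mice and 25.8, 27.0 and 30.04 CPM in PD mice. All PD mice were below all saline mice, and the log2 change was -0.62 (SE 0.10, edgeR adjusted p = 0.000382).

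Markers of proliferation were also lower under TMM scaling. Of 17 such genes, 13 were lower and none higher (27.8% and 31.1% of all genes tested), with a median log2 fold change of -0.42. Their summed CPM was 1038 to 1078 in saline and 811 to 854 in PD mice. With endothelial marker scaling all 17 were lower (64.2% of all genes tested), with a median of -1.13. With leukocyte marker scaling 2 were higher and 5 lower (53.0% and 6.79%), with a median of -0.075. The part of proliferation in the lower values of Tk1, Rrm1, Rrm2 and Dtymk was not tested.

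Of the 4 nucleotide kinases, Cmpk1, which phosphorylates CMP and UMP, was at 114, 122 and 119 CPM in saline mice and 102, 102 and 104 CPM in PD mice. It was slightly lower in every PD mouse, with a log2 change of -0.20 (SE 0.062, edgeR adjusted p = 0.0153), and it did not pass without PD replicate 2 (edgeR adjusted p = 0.0685). Guk1, which phosphorylates GMP, was at 59.1, 58.5 and 56.2 CPM and 51.5, 51.7 and 55.1 CPM (log2 change -0.14, SE 0.072, edgeR adjusted p = 0.125). Nme1, a nucleoside diphosphate kinase, was at 253, 258 and 244 CPM in saline mice and 164, 180 and 199 CPM in PD mice (ENSMUSG00000037601, chromosome 11, 93956979 to 93968521, minus strand). It was the most abundant member per length in both groups, at 178 ± 6.43 FPKM (SD, n = 3) and 122 ± 7.40 FPKM (SD, n = 3). Each PD mouse was lower, and the log2 change was -0.47 (SE 0.074, edgeR adjusted p = 0.000295). Nme2 (ENSMUSG00000020857, chromosome 11, 93949814 to 93956259, minus strand), the adjacent gene, was at 49.3, 53.3 and 47.0 CPM in saline mice and 57.5, 62.4 and 56.7 CPM in PD mice. All PD mice were above all saline mice, and the log2 change was 0.24 (SE 0.079, edgeR adjusted p = 0.0229), but it did not pass without saline replicate 1 or 3 or PD replicate 2 (edgeR adjusted p of 0.0650 to 0.0956). With endothelial marker scaling Nme2 was lower in PD mice (log2 change -0.47, edgeR adjusted p = 0.000259).

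The value of Nme2 also depended on a neighbouring annotation. Gm20390, a read-through gene on the same strand that joins Nme1 and Nme2, shares 48.9% of the exonic bases of Nme2 and 12.5% of those of Nme1. It was at 57.5, 48.5 and 50.8 CPM in saline mice and 35.4, 33.2 and 48.3 CPM in PD mice. Reads of the shared exons could be assigned to either gene. When Gm20390 was counted as Nme2, a setting added once the data had been seen, the log2 fold change of Nme2 was -0.063 (edgeR adjusted p = 0.473), and the higher level in PD mice was no longer present.

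Per length, the members spanned a wide range of levels. In saline mice, FPKM ran from 1.31 ± 0.170 FPKM (SD, n = 3) for Cad to 178 ± 6.43 FPKM (SD, n = 3) for Nme1, with a median of 34.4, and in PD mice from 1.41 ± 0.373 FPKM (SD, n = 3) to 122 ± 7.40 FPKM (SD, n = 3), with a median of 26.9. Ctps2, Hprt and Prps1 followed Nme1, and Hprt and Prps1 did not differ beyond their spread in saline mice, at 98.4 ± 7.43 FPKM (SD, n = 3) and 95.9 ± 6.30 FPKM (SD, n = 3). Atic and Pfas were, with Cad, the least abundant.

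**Figure D3:**
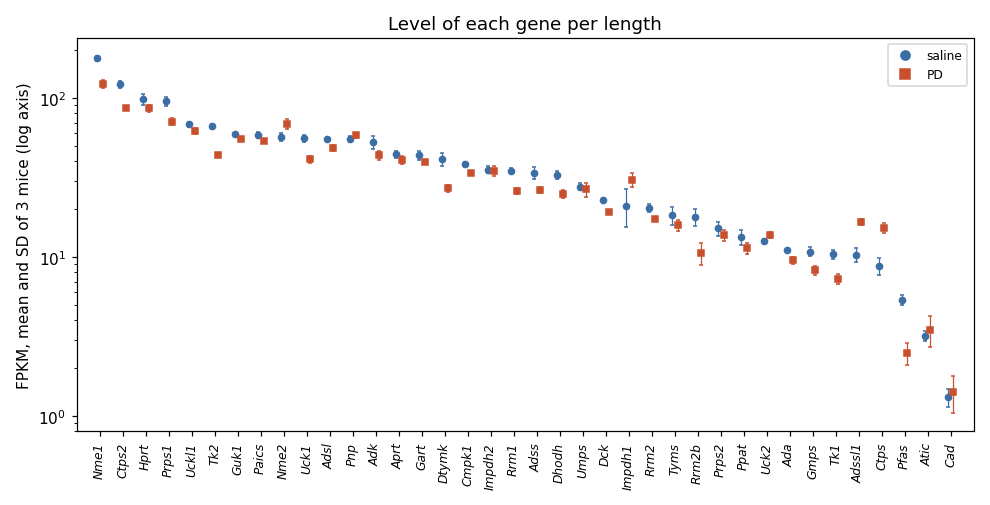
The plot gives the FPKM of each gene as the mean and SD of 3 saline mice (circles) and 3 PD mice (squares) on a log axis, ordered by the saline mean. Nme1 stands at the left at 178 in saline mice and Cad at the right at 1.31.

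A ratio of 2 isozymes within a library does not depend on how the libraries are scaled. The log2 ratio of counts was compared between the groups for all 8 pairs by two-sided exact permutation tests, in which 3 mice against 3 allow no p under 0.1. The groups did not overlap in 6 pairs, each with an exact p of 0.1, or 0.133 after Benjamini-Hochberg adjustment over the 8 pairs, so that none passed 0.05. Among all single genes tested, the groups did not overlap in 34.0% with PD mice higher and in 31.6% with PD mice lower. The share among ratios of other gene pairs was not computed, so the 6 pairs cannot be set against it. The ratio of Ctps to Ctps2 was -3.05, -2.81 and -2.81 in saline mice and -1.63, -1.70 and -1.53 in PD mice. It was higher in all PD mice by 1.27 (SE 0.091). The ratio of Uck2 to Uck1 was -2.61, -2.77 and -2.64 in saline mice and -1.76, -1.83 and -1.90 in PD mice. This too was higher in each PD mouse, by 0.84 (SE 0.064). The ratio of Adss to Adssl1 was 2.05, 2.49 and 2.50 in saline mice and 1.33, 1.29 and 1.299 in PD mice. It was lower in all PD mice by a difference of -1.04 (SE 0.15).

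For Impdh1 over Impdh2, the log2 ratio was -0.16, -0.85 and 0.066 in saline mice and 0.34, 0.14 and 0.27 in PD mice. The difference of 0.57 (SE 0.28) rested in part on saline replicate 2, without which it was 0.30. The ratio of Rrm2 to Rrm2b was -0.12, -0.43 and -0.29 in saline mice and 0.031, 0.30 and 0.14 in PD mice. It was higher in PD mice by 0.44 (SE 0.12), with both genes lower. The ratio of Nme1 to Nme2 was 2.36, 2.27 and 2.38 in saline mice and 1.51, 1.53 and 1.81 in PD mice. Its difference of -0.72 (SE 0.10) became -0.41 when the counts of Gm20390 were added to Nme2. The groups overlapped for Prps1 over Prps2, with a difference of -0.29 (SE 0.15) (exact permutation p = 0.2, adjusted 0.229), and for Tk1 over Tk2, with a difference of 0.11 (SE 0.096) (exact permutation p = 0.3, adjusted 0.3).

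**Figure D4:**
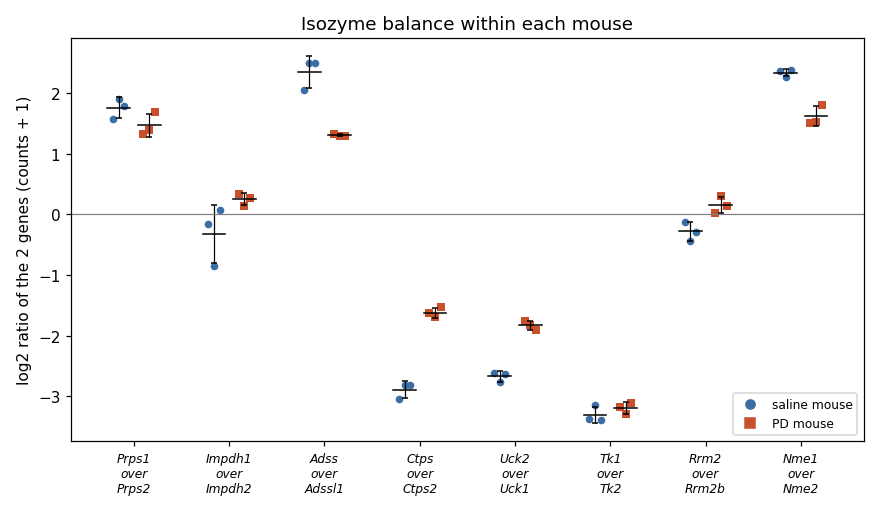
The plot shows the log2 ratio of counts of each isozyme pair in each mouse, with the mean and SD of 3 saline mice (circles) and 3 PD mice (squares). Saline and PD mice are separate in 6 pairs and overlap for Prps1 over Prps2 and for Tk1 over Tk2, and the mean ratio of Ctps to Ctps2 goes from -2.89 to -1.62.

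The other genes of nucleotide metabolism were read from the same fit. Of 24 breakdown genes, 22 were tested, and 11 were higher and 7 lower under TMM scaling, with a median log2 fold change of 0.60. Among all genes tested, 31.1% were higher and 27.8% lower. With endothelial marker scaling, 3 breakdown genes were higher and 10 lower, with a median of -0.10. In that fit 11.9% of all genes were higher and 64.2% lower, with a median of -0.69. Of 19 genes of interconversion and pool quality, 18 were tested, with 3 higher and 6 lower and a median of -0.19. The breakdown genes, unlike the synthesis and salvage genes, had a median above that of all genes, which was 0.017 under TMM. As scaling moves all genes by nearly the same amount, this order was bound to stay with endothelial marker scaling, which is no separate check of it. The difference between these lists was not tested. Macrophage markers were higher in the same libraries, with a median log2 fold change of 2.04, and the part of these cells in the breakdown genes was not tested.

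Xdh, the enzyme that makes urate, was at 83.8, 71.3 and 85.8 CPM in saline mice and 251, 254 and 232 CPM in PD mice. The log2 change was 1.61 (SE 0.080, edgeR adjusted p = 3.81e-08), and Xdh was also higher with endothelial marker scaling. Gda, the guanine deaminase, was at 9.92, 7.93 and 7.83 CPM in saline mice and 30.5, 32.4 and 35.7 CPM in PD mice. Both were higher in every PD mouse by a wide margin, with a log2 change of 1.94 (SE 0.12, edgeR adjusted p = 3.00e-07) for Gda. Entpd1, which removes phosphate from extracellular ATP and ADP, was at 65.2, 61.5 and 62.5 CPM in saline mice and 124, 128 and 131 CPM in PD mice. The groups were far apart, and the log2 change was 1.02 (SE 0.064, edgeR adjusted p = 2.81e-07). Ampd3, an AMP deaminase, was at 15.8, 12.5 and 18.4 CPM in saline mice and 34.7, 28.9 and 29.5 CPM in PD mice, with a log2 change of 0.99 (SE 0.14, edgeR adjusted p = 0.000141). In the other direction, Ampd1, another AMP deaminase, was at 7.58, 8.39 and 8.82 CPM in saline mice and 3.57, 5.37 and 4.94 CPM in PD mice. It was lower in every PD mouse, with a log2 change of -0.84 (SE 0.18, edgeR adjusted p = 0.00231). Nt5c3b, a nucleotidase, had a log2 change of -0.52 (SE 0.078, edgeR adjusted p = 0.00022).

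Ak5, an adenylate kinase, was at 0, 0.277 and 0 CPM in saline mice and 2.06, 1.01 and 1.86 CPM in PD mice. It was near the limit of detection in saline mice, so its log2 change of 4.19 (SE 0.78, edgeR adjusted p = 0.000902) rests on few reads. Ak6 and Prpsap2, a protein associated with PRPP synthetase, were lower, with log2 fold changes of -0.54 and -0.51. Of 7 nucleoside transporters 5 were tested. The transporters that passed are named after their values were seen: the equilibrative transporters Slc29a1 and Slc29a3 were higher, with log2 fold changes of 0.68 and 0.68, and the concentrative transporter Slc28a2 was lower, at -0.36. With endothelial marker scaling neither Slc29a1 nor Slc29a3 passed. Of all the 51 tested genes outside the members 4 were then higher and 32 lower (11.9% and 64.2% of all genes tested).

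**Figure D5:**
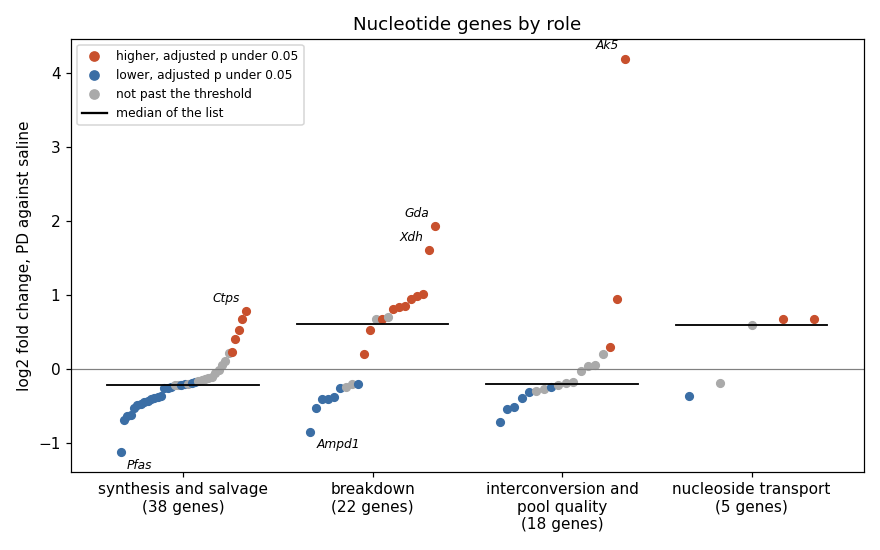
The plot shows the log2 fold change of each tested gene under TMM scaling by role, ordered within a role, with genes past an adjusted p of 0.05 in colour and the median of each list as a line. The median is -0.21 for the 38 synthesis and salvage genes and 0.60 for the 22 breakdown genes, among which Xdh and Gda stand highest.

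Transcription factors that are known to act on nucleotide synthesis genes moved in different directions under TMM scaling. Myc was at 196, 187 and 192 CPM in saline mice and 194, 193 and 188 CPM in PD mice. It had a log2 change of 0.0010, and is named here after its value was seen. Mycn was low in all mice and had a log2 change of 0.97 (SE 0.36, edgeR adjusted p = 0.0398). E2f1 was at 8.04, 4.70 and 6.17 CPM in saline mice and 10.6, 12.2 and 11.1 CPM in PD mice. It was higher in every PD mouse, with a log2 change of 0.83 (SE 0.19, edgeR adjusted p = 0.00276), and is also named after its value was seen. E2f2 was at 24.5, 18.0 and 22.2 CPM in saline mice and 14.97, 12.96 and 14.4 CPM in PD mice. It was lower in every PD mouse, with a log2 change of -0.61 (SE 0.13, edgeR adjusted p = 0.00213). Of the 6 regulators tested, 2 were higher, 1 lower and 3 did not pass under TMM scaling (31.1% higher and 27.8% lower among all genes tested). With endothelial marker scaling 0 were higher and 4 lower (11.9% and 64.2%). E2f1 (log2 change 0.13, edgeR adjusted p = 0.547) and Mycn (0.26, edgeR adjusted p = 0.545) did not pass in that fit.

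The promoters of the members were searched for the E-box that Myc binds, CACGTG, and for the E2F motifs TTTCGCGC and TTTGGCGC, on both strands of the 250 bases upstream of each RefSeq start site. RefSeq promoters (GRCm38.p6) were matched for 35 members and were not found for Pfas, Dhodh and Rrm2b. The E-box was present in 6 of the 35 (17.1%), against 6.86% of 27025 genes with a promoter, and in 2 of the 17 lower and 0 of the 5 higher members with a promoter. A gene counted if any of its start sites had a match. The share among members rests on 6 genes, the 27025 genes were not limited to those expressed here, and the difference was not tested. Neither E2F motif was found in the 35, against 0.759% of all. At so low a share an absence in 35 promoters says little, and it does not show that these genes lack E2F sites. These are matches of letters, not sites shown to be bound. The 7 matches in the 6 genes are shown with 12 bases on either side, 5′ to 3′ on the strand of the gene, with the E-box in capitals. The annotation is from GENCODE M21 on the same build, in which some starts lie upstream of those of RefSeq, and both Nme1 windows also lie in Gm20390.
Atic, chr1:71557137-71557166, plus strand, in an exon of Atic: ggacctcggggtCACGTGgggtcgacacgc
Impdh2, chr9:108560314-108560343, plus strand, in an exon of Impdh2: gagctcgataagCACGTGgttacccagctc
Paics, chr5:76951087-76951116, plus strand, in an exon of Ppat: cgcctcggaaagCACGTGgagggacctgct
Tyms, chr5:30073669-30073698, minus strand, intergenic: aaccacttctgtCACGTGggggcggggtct
Dtymk, chr1:93802065-93802094, minus strand, intergenic: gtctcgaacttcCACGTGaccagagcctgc
Nme1, chr11:93968273-93968302, minus strand, in an exon of Nme1: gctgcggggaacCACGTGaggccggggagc
Nme1, chr11:93968037-93968066, minus strand, in an intron of Nme1: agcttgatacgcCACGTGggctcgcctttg
Dtymk and Nme1 were lower in PD mice, and Atic, Impdh2, Paics and Tyms did not pass the threshold.

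Aprt, Pnp and Uck2 were the members for which the study gives PCR primers. They are shown because the sequence that each pair amplifies decides which of the table's genes it reads.
Aprt forward: ccctcttgaaagacccggac
Aprt reverse: tccagagaataggaggctgac
Pnp forward: atctgtggttccggcttagga
Pnp reverse: tggggaaagttgggtatctcat
Uck2 forward: cttccgtttgtgctaagatcgt
Uck2 reverse: gtgaggactcggtagaagctat
In the GENCODE M21 transcripts, the Aprt and Uck2 pairs matched Aprt and Uck2 alone, with a Uck2 product of 106 bases. The Pnp pair matched Pnp, its paralog Pnp2 and the overlapping gene Gm49342, with a product of 86 bases in each. Pnp2 was at 1.44, 1.43 and 1.95 CPM in saline mice and 1.58, 1.97 and 1.04 CPM in PD mice and Gm49342 at 1.13, 0 and 2.36 CPM in saline mice and 1.21, 4.03 and 1.77 CPM in PD mice. Both were low in every mouse, while Pnp itself was at 87.8, 98.9 and 88.5 CPM and 89.0, 97.4 and 99.0 CPM. Reads could be shared among these near copies, so the Pnp count is uncertain to that extent. In these libraries Uck2 was the only one of the PCR genes past the threshold under TMM scaling, and it was higher in PD mice (log2 change 0.41). With endothelial marker scaling Aprt, Pnp and Uck2 were all lower (64.2% of all genes tested), with a log2 change of -0.30 for Uck2. With leukocyte marker scaling all of them were higher (53.0%).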

How the data were processed

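RNA was sequenced from cells sorted as peritoneal ECs, of 3 saline and 3 PD mice. Per the labels, poly(A) RNA was prepared with the NEBNext Ultra kit, and the submitters' processing notes name fastp 0.18.0, Bowtie2 2.2.8, HISAT2, StringTie 1.3.1 and RSEM. The genome build is not given in the sources used here. The authors deposited raw read counts and FPKM values per gene and mouse, beside group means, log2 ratios, p-values and FDR, which were not used. Total counts ran from 21973426 to 26374292 per mouse, and 4492 genes had none. The methods describe 3 mice a group, and each library was taken as 1 mouse.

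Counts were filtered (filterByExpr), scaled by TMM and tested with edgeR 4.0.16 in R 4.3.3 (quasi-likelihood, no covariate, Benjamini-Hochberg, threshold 0.05), after a test on simulated data. The SE of an edgeR log2 change was derived as its absolute value over the square root of the quasi-likelihood F statistic. Limma 3.58.1 (voom) and DESeq2 1.42.0 were alternatives. The methods name limma for the RNA sequencing, with no threshold beside it. FPKM served only for levels between genes. Isozyme ratios used counts with an offset of 1. Same-numbered mice did not deviate together (correlations from -0.27 to 0.19), so numbers were not treated as pairs. Members and lists were chosen with earlier results of these data known. All members are named, with values in every mouse if past the threshold or in an isozyme pair, as are, past the threshold, up to 6 of the other pathway genes in each direction with the largest fold change, of which 1 is not reported here. Positions are from GENCODE M21 (GRCm38).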

Additional observations from a re-analysis of the deposited data

How the results depend on the processing

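Of the 38 members, 5 were higher and 20 lower. With each mouse left out in turn, 4 to 5 were higher and 14 to 22 lower, and the median log2 fold change ran from -0.23 to -0.18. With the mouse number as a replicate block, 5 were higher and 20 lower with a median of -0.21, although Gart no longer passed and Hprt did. RLE scaling, library totals alone, no filter on low counts, limma-voom and DESeq2 gave 5 higher and 18 to 21 lower. Scaling to markers changed the direction of calls. With endothelial marker scaling, 0 members were higher and 34 lower with a median of -0.92, and of the other pathway genes 4 were higher and 32 lower, against 18 and 15. With leukocyte marker scaling, chosen after seeing the data, 13 members were higher and 4 lower with a median of 0.14, and of the other pathway genes 26 were higher and 3 lower. The log2 fold changes that turned sign with endothelial markers were Atic -0.59, Impdh1 -0.19, Adssl1 -0.031, Pnp -0.65, Cad -0.49, Uck2 -0.30 and Nme2 -0.47. Those that turned with leukocyte markers were Prps2 0.19, Ppat 0.10, Gart 0.17, Paics 0.20, Adsl 0.14, Impdh2 0.34, Hprt 0.15, Aprt 0.23, Ada 0.13, Adk 0.13, Umps 0.30, Uckl1 0.16, Dck 0.089, Rrm2 0.096, Tyms 0.24, Cmpk1 0.14 and Guk1 0.21. Values within their error also turned when a mouse was left out, with Impdh2 between -0.056 and 0.036, Umps between -0.13 and 0.046 and Tyms between -0.17 and 0.036, and the highest values came without saline replicate 2 (Impdh2) or PD replicate 1 (Umps and Tyms). Nme2 was at -0.063 with the counts of Gm20390 added. All 8 isozyme ratio differences kept their sign with an offset of 5, with mice paired by number and with each mouse left out. The cause of these changes was not tested. With 3 mice a group, the exact test of a ratio cannot pass 0.05, and fold changes of genes with few reads, such as Cad, Atic and Ak5, are the least precise.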
